A study of Homo sapiens with 16 samples.

Results

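The 168 olfactory receptor genes of human chromosome 11 were examined across 5 lists of TOP2A cleavage cluster regions (CCRs). They were taken from 20034 protein-coding genes of the RefSeq table of GRCh38.p14 as those on chromosome 11 whose symbol is OR, a family number, letters and a member number, such as OR51B4. The pattern matched 171 genes. Positions of OR9G9, OR8U8 and OR8U9 in that table end at 19151, 187333 and 194908, before the first CCR of the chromosome at 198550, and these 3 genes were not used. A CCR was assigned to a gene when its centre lay in the gene body or within 2 kb of either end, and this stretch is called the window. Of the 168 genes, 161 had at least 50% of their window in callable sequence (100 kb bins with a CCR in any list) and are called measured. The other 7 genes, OR5P3, OR5T2, OR5T3, OR5T1, OR8H1, OR9G1 and OR9G4, held no CCR in any list, which is in part how callable sequence was defined.

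The cells were K562, a single human chronic myeloid leukaemia line. They were exposed to 25 µM etoposide, 50 µM genistein or 2 µM mitoxantrone for 1 h, to 8 µM p-benzoquinone for 4 h, or to the vehicle DMSO for 1 or 4 h, with 0.05% DMSO in every group, and the labels do not say which vehicle library had which time. TOP2A with its bound DNA was immunocaptured, and the authors pooled pre-amplified libraries (3 DMSO, 3 etoposide, 2 genistein, 1 mitoxantrone and 2 p-benzoquinone by title) into 1 list of CCRs per treatment. Another p-benzoquinone library is not pre-amplified by its title but is by its description, which names no list, so whether it was pooled is not known. Each group is thus 1 list with no replicate value, no test between treatments was possible, and every interval below is an exact binomial 95% interval that covers counting error only. The 4 poison lists are all set against the same DMSO list, and the p-benzoquinone exposure was longer than the others. No expression was measured, so neither markers of the line nor transcription of any receptor gene could be checked here.

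Olfactory receptors are G protein-coupled receptors of sensory neurons in the nose, and each neuron settles on a single receptor allele while the rest of the family stays in closed chromatin. Class I receptors, in families 51 to 56, resemble those of fish, and class II receptors make up the remaining families. The genes have an intronless coding exon and sit in tandem clusters made by repeated duplication. DNA topoisomerase II alpha (TOP2A) passes 1 DNA duplex through a transient cut in another, and TOP2 poisons trap the enzyme on the cut DNA.

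The promoters in which CCRs of more than 1 list fell are printed here, since they show where single receptors carried CCRs. RefSeq promoter sequences (GRCh38.p14, 250 bases before to 50 after the gene start) were at hand for 135 of the 168 genes. A CCR overlapped the promoter in 35 of these, in 1 list for 29 and in 2 lists for 6. Sequences are given 5′ to 3′ on the strand of the gene. In OR4X2 and OR51F1 the last 50 bases open with ATG, so the gene start used there may be a start codon. How many of the 135 sequences open this way was not counted. Capitals in the first 4 mark bases covered by CCRs of both lists, and in OR4X2 and OR51F1, whose CCRs share no promoter base, those covered by either.
OR10A2: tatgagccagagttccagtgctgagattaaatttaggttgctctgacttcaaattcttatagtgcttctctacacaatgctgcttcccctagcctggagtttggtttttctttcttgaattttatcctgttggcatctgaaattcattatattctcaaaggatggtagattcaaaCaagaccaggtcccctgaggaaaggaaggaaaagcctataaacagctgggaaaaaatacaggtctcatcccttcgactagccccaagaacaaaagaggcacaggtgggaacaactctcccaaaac
OR10AG1: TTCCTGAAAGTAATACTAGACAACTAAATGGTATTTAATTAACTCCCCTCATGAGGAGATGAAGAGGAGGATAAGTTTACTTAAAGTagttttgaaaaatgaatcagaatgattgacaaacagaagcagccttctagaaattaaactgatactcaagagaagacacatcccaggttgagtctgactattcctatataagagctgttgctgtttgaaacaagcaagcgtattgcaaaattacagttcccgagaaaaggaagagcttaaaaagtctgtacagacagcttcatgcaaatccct
OR10D3: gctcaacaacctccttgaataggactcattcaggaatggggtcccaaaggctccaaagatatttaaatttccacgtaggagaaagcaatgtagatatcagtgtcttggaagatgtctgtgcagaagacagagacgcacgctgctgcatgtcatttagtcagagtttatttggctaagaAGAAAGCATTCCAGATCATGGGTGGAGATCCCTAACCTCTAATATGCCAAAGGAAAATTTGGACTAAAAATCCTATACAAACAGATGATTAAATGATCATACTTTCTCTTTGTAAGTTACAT
OR52N2: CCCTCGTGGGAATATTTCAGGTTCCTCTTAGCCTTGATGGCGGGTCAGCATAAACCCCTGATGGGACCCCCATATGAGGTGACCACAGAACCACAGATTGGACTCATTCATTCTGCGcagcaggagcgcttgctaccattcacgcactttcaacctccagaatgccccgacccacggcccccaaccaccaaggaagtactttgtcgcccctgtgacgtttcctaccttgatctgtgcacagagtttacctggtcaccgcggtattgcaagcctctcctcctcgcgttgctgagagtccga
OR4X2: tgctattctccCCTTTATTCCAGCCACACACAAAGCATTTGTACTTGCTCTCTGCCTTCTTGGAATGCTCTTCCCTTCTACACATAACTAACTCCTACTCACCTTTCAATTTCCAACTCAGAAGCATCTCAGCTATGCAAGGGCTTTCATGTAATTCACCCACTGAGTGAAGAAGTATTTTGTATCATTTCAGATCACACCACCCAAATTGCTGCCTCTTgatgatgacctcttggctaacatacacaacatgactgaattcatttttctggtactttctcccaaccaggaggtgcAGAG
OR51F1: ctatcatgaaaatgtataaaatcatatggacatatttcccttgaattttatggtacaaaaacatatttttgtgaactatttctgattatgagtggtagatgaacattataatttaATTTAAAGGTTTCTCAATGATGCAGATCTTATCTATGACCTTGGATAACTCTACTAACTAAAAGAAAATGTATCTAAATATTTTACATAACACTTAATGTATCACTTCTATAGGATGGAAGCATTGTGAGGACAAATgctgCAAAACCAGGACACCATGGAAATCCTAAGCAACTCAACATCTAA

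The OR10AG1 promoter (chr11:55969896-55970195, minus strand) was reached by a DMSO CCR of score 14.2 and a p-benzoquinone CCR of score 5.54, which shared 87 of its bases. The score is the authors' value per CCR and has no stated unit. In OR10D3 (chr11:124183095-124183394, plus strand) the same pair of lists shared 122 bases, with scores of 2.3 and 7.48. The OR52N2 promoter (chr11:5808674-5808973, plus strand), with 14 CpG sites, the highest number among these 135, held etoposide and genistein CCRs of score 6.44 and 8.6 that shared 117 bases. In OR10A2 (chr11:6862807-6863106, plus strand) a genistein CCR of score 22.37 and a p-benzoquinone CCR of score 3.41 met in 1 base. OR4X2 (chr11:48244854-48245153, plus strand) held DMSO and etoposide CCRs, and OR51F1 (chr11:4769889-4770188, minus strand) held DMSO and p-benzoquinone CCRs, each pair lying apart.

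The receptor sequences taken as promoters were poor in G and C. Their median GC content was 37.0% (24.3 to 57.0), against 62.7% over all 15843 protein-coding promoters, and their median number of CpG sites was 1 against 22. The motif TATAAA, searched on both strands, was in 35.6% of them and in 9.63% of all promoters. TAATTA, the letters of a homeodomain core, read the same on both strands and was in 24.4% and 3.34%. All windows were 300 bases long, and a match of letters is not a site. A CCR overlapped the promoter by at least 1 base in 10 of the 135 genes in DMSO, or 7.41%, against 4.3% of all promoters. The share was 3.7% in etoposide against 2.25%, 8.15% in genistein against 4.15%, 2.96% in mitoxantrone against 2.06%, and 8.15% in p-benzoquinone against 6.85%. These shares rest on 4 to 11 receptor promoters per list. Where the gene start is a start codon, the sequence need not hold the start of transcription. The GC, CpG, motif and CCR values may then not be like for like with those of all promoters.

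Taken as a whole, the receptor windows carried CCRs at the genome mean in every list. They held 177 of 310038 CCRs in DMSO, 109 of 182582 in etoposide, 247 of 415215 in genistein, 118 of 202865 in mitoxantrone and 198 of 359249 in p-benzoquinone. Per length this was 11.4 CCRs per 100 kb in DMSO, where the genome mean of the same list was 11.2. CCR density, the number per callable length over the mean of the same list across 2763 Mb of callable genome, was 1.01 in DMSO (0.87 to 1.18) and 1.06 in etoposide (0.871 to 1.28). It was 1.06 in genistein (0.929 to 1.2), 1.03 in mitoxantrone (0.855 to 1.24) and 0.979 in p-benzoquinone (0.848 to 1.13). All 5 intervals include 1.

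Scaled to list size, the number of CCRs in receptor windows also lay near that of the vehicle. The ratio over DMSO was 1.05 with etoposide (0.816 to 1.34), 1.04 with genistein (0.856 to 1.27), 1.02 with mitoxantrone (0.8 to 1.29) and 0.965 with p-benzoquinone (0.784 to 1.19). No difference from the vehicle was detectable at these numbers of CCRs, and changes within those bounds cannot be told from none. Unscaled, the ratios were 0.616, 1.4, 0.667 and 1.12, which follow the list sizes of 0.589, 1.34, 0.654 and 1.16 times DMSO.

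The 219 olfactory receptor genes on other chromosomes had lower densities. They were at 0.797 in DMSO (0.691 to 0.914), 0.966 in etoposide (0.816 to 1.14), 0.879 in genistein (0.783 to 0.985), 0.888 in mitoxantrone (0.751 to 1.04) and 0.847 in p-benzoquinone (0.745 to 0.959). The chromosome 11 receptors exceeded them 1.27-fold in DMSO (1.03 to 1.57) and 1.2-fold in genistein (1.01 to 1.43). The ratios of 1.1 in etoposide (0.848 to 1.42), 1.16 in mitoxantrone (0.906 to 1.49) and 1.16 in p-benzoquinone (0.955 to 1.4) have intervals that include 1. Chromosome 11 as a whole lay at 1.07 to 1.11 times the genome mean in these lists. Other protein-coding genes of the chromosome, 1130 in number, were at 1.1 to 1.24. Against those genes the receptors were lower in DMSO, at 0.858 (0.735 to 0.996), and in p-benzoquinone, at 0.787 (0.681 to 0.906). The ratios of 0.921 in etoposide (0.755 to 1.11), 0.96 in genistein (0.842 to 1.09) and 0.939 in mitoxantrone (0.776 to 1.13) have intervals that include 1.

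**Figure D1:**
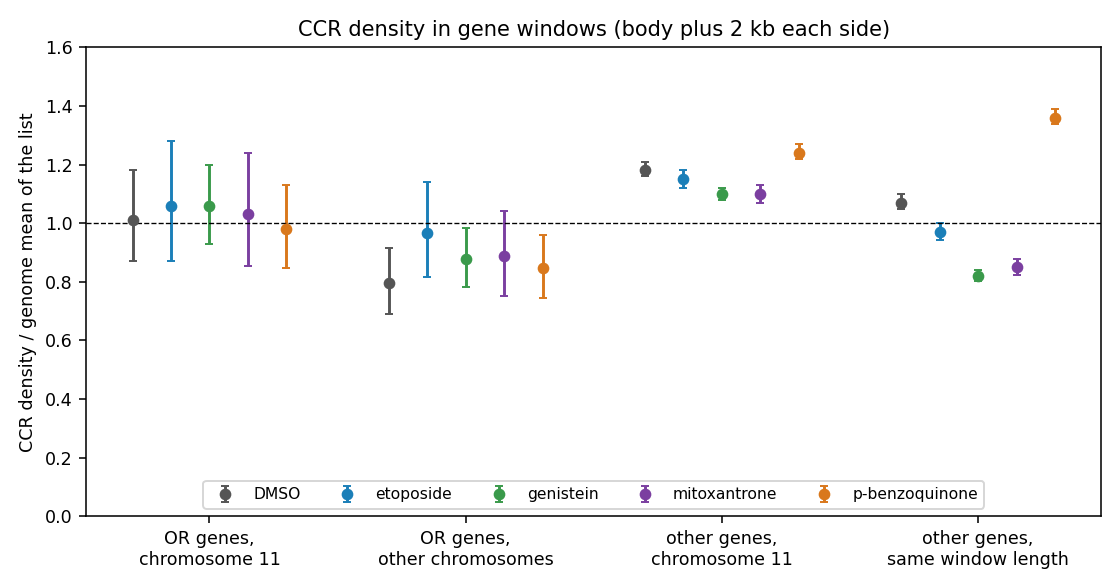
CCR density (vertical axis, number per callable length over the genome mean of the same list) in 4 sets of gene windows, with 1 point per list and bars for exact binomial 95% intervals. The chromosome 11 receptors lie between 0.979 and 1.06 in all lists. The genes in the same range of window length spread from 0.821 in genistein to 1.36 in p-benzoquinone.

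Receptor density was next set against that of genes of other kinds with windows in the same range of length, called same-length genes. The 6233 other genes with windows of 4.93 to 18.7 kb, the range from the 5th to the 95th percentile of the receptor windows, had densities of 1.07 in DMSO, 0.971 with etoposide, 0.821 with genistein, 0.85 with mitoxantrone and 1.36 with p-benzoquinone. Receptor density over theirs was 1.29 in genistein (1.13 to 1.46) and 0.719 in p-benzoquinone (0.621 to 0.827). In the other lists it was 0.944 for DMSO (0.809 to 1.1), 1.09 for etoposide (0.895 to 1.32) and 1.22 for mitoxantrone (1.0 to 1.46). The poison over DMSO ratio of the receptors, divided by that of the same-length genes, was 1.36 for genistein (1.12 to 1.67), 1.29 for mitoxantrone (1.01 to 1.64), 1.16 for etoposide (0.9 to 1.48) and 0.761 for p-benzoquinone (0.617 to 0.939). The same-length genes moved from list to list, at 0.904, 0.764, 0.792 and 1.27 times DMSO for etoposide, genistein, mitoxantrone and p-benzoquinone, while the receptors stayed at the values given above. With gene bodies alone the genistein ratio was 1.17 (0.989 to 1.39), and its interval then includes 1.

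Steps in the scores also differ between the lists of this contrast. Many low scores were multiples of a fine step (0.2304 in DMSO) or a coarse step (0.338 in DMSO), inferred from the values, and 84.4% of low values in DMSO and 73.9% in etoposide could be assigned to 1 of them. No label ties a step to a library, and regions are grouped here by step class. Both steps occurred in the DMSO and etoposide lists, the coarse step alone in the genistein and mitoxantrone lists, and the fine step alone in the p-benzoquinone list. Steps were sought in scores up to 10, so the classes cover part of each list. The lowest score was 3.72 in genistein and 3.87 in mitoxantrone, but 1.82 in p-benzoquinone. Class thus goes with score, and the classes were not compared at like scores. The coarse class held 147111 of 415215 CCRs in genistein and 70077 of 202865 in mitoxantrone. The fine class held 303065 of 359249 in p-benzoquinone. Within the DMSO list the same-length genes were at 1.25 in the fine class and 0.937 in the coarse class. Receptor density over theirs was 0.842 (0.653 to 1.07) and 1.01 (0.695 to 1.41) in those classes. In etoposide the fine class gave 0.746 (0.44 to 1.19) and the coarse class 1.39 (0.986 to 1.9). The coarse class of genistein gave 1.36 (1.1 to 1.67) and that of mitoxantrone 1.24 (0.898 to 1.68), and the fine class of p-benzoquinone gave 0.768 (0.657 to 0.893). In genistein, mitoxantrone and p-benzoquinone the class is a part of the same list, so its value in part repeats that of the list. Each class interval of DMSO and etoposide includes 1. Step class and treatment cannot be told apart for lists with 1 class.

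Single receptor genes held few CCRs. The median gene body was 1.1 kb long, and 92 of the 161 measured genes, or 57.1%, held at least 1 CCR in DMSO, against 85.7% of all 18971 measured protein-coding genes and 68.1% of same-length genes. In etoposide the count was 69 genes (42.9%, against 75.0% and 48.5%), in genistein 115 (71.4%, against 86.7% and 69.3%), in mitoxantrone 75 (46.6%, against 75.3% and 47.2%) and in p-benzoquinone 95 (59.0%, against 89.9% and 78.7%). The median was 1 CCR per gene in DMSO, genistein and p-benzoquinone and 0 in etoposide and mitoxantrone. Of the measured genes, 23 held a CCR in all 5 lists (14.3%, against 16.8% of same-length genes), and 15 held none in any list (9.32%, against 6.32%). The remaining genes had CCRs in 1 list (14 genes), 2 lists (37), 3 lists (45) or 4 lists (27).

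**Figure D2:**
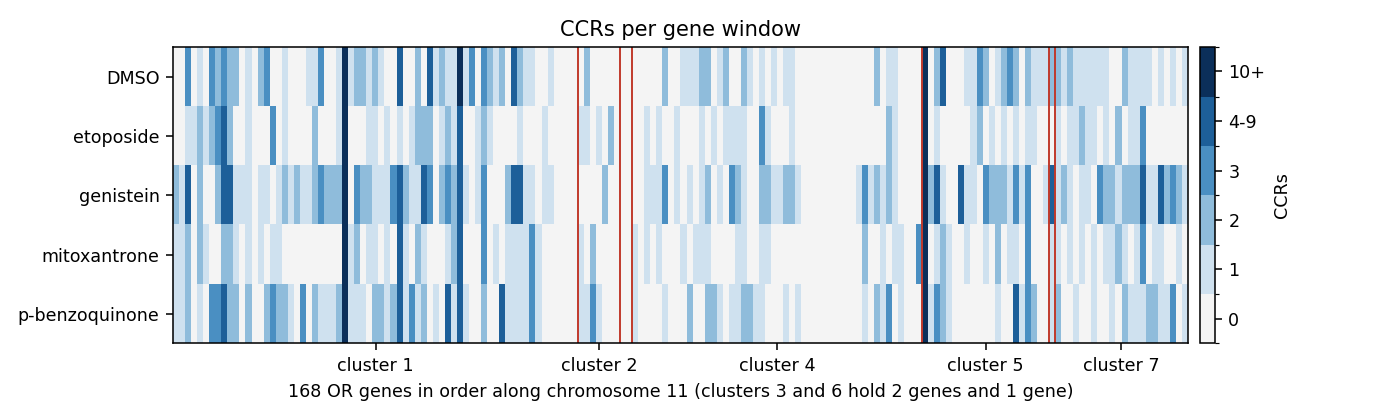
Number of CCRs in each receptor window (colour) for the 168 genes in their order along chromosome 11 (horizontal axis, by rank) and the 5 lists (rows), with red lines between clusters. Most squares stand for 0 to 2 CCRs, the columns with 10 or more belong to OR51B5, OR9Q1 and, in DMSO, OR56A3, and a run of empty columns crosses all 5 rows in cluster 4.

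Changes of single genes by 2-fold or more were counted on the covered share of the window over its genome mean, with a pseudocount of 0.1, which understates changes of low genes. Under genistein 52 of the 161 genes were higher than in DMSO (32.3%) and 33 lower (20.5%), against 14.8% and 20.0% of all measured genes and 23.2% and 30.8% of same-length genes. Under etoposide 35 were higher (21.7%) and 46 lower (28.6%), against 14.0% and 24.5% of all genes and 19.5% and 35.2% of same-length genes. Under mitoxantrone 35 were higher (21.7%) and 45 lower (28.0%), against 13.5% and 25.0% of all genes and 18.1% and 37.0% of same-length genes. Under p-benzoquinone 44 were higher (27.3%) and 40 lower (24.8%), against 21.2% and 12.5% of all genes and 33.5% and 18.4% of same-length genes. The median log2 ratio over the receptors was 0.0 for each poison, while over all measured genes it was -0.02 with etoposide, -0.03 with genistein, -0.04 with mitoxantrone and 0.08 with p-benzoquinone. Same-length genes had medians of 0.0 for the first 3 poisons and 0.14 with p-benzoquinone. In the same order 49, 27, 43 and 36 receptor windows had no covered base in either list, which sets their ratio to 0. With 0 or 1 CCR in most windows, a single CCR makes a 2-fold change. The same-length genes were not matched in length within their range, so these shares can differ through window length.

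The genes with the most CCRs were those with the longest models. OR51B5, a class I gene next to the globin genes (chr11:5340318-5505652), spans 165 kb in the RefSeq table, and its body contains the shorter genes OR51B6, OR51M1, OR51Q1, OR51I1, OR51I2 and OR52D1. It held 22 CCRs in DMSO, 13 with etoposide, 23 with genistein, 13 with mitoxantrone and 24 with p-benzoquinone. OR9Q1 (chr11:58023881-58181616), a class II gene of 158 kb whose body contains OR6Q1 and OR9I1, held 17, 11, 22, 16 and 24 in the same order of lists. OR56A3 (chr11:5942251-6022010), of 79.8 kb, held 10, 4, 7, 5 and 8. The numbers of all 3 genes are high with their length, but not in proportion to it in each list. In genistein OR56A3 had 8.36 CCRs per 100 kb, beside a genome mean of 15.0 and 13.6 in both OR51B5 and OR9Q1. In DMSO it had 11.9, beside a genome mean of 11.2. CCRs in the genes that these 3 contain are counted under both symbols. Without these 3 genes the density was 1.04 in DMSO (0.873 to 1.22), 1.07 in etoposide (0.857 to 1.32), 1.16 in genistein (1.01 to 1.32), 1.02 in mitoxantrone (0.821 to 1.25) and 0.962 in p-benzoquinone (0.816 to 1.13). The genistein interval then lies above 1.

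Short genes also carried CCRs in every list. OR51F2 (chr11:4821321-4822456), of 1.14 kb, held 1 CCR in each of DMSO, etoposide, genistein and mitoxantrone and 2 in p-benzoquinone. OR5I1 (chr11:55935456-55936400), of 0.945 kb, and OR6X1 (chr11:123753580-123754518), of 0.939 kb, each held 2 in DMSO, 1 in etoposide, genistein and mitoxantrone, and 2 in p-benzoquinone. Such windows hold so few CCRs that the lists cannot be ordered by them. Over the 89 genes with bodies under 1.2 kb the density was 1.1 in DMSO (0.83 to 1.44), 1.11 in etoposide (0.76 to 1.57), 1.25 in genistein (0.996 to 1.55), 1.09 in mitoxantrone (0.762 to 1.52) and 1.15 in p-benzoquinone (0.885 to 1.46).

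Receptors with known ligands or sites outside the nose held 0 to 7 CCRs per list, too few to tell whether they share a pattern. OR51E2 (chr11:4680171-4697853), also called the prostate-specific G protein-coupled receptor and activated by short-chain fatty acids, held 3 CCRs in DMSO, 4 with etoposide, 7 with genistein, 2 with mitoxantrone and 5 with p-benzoquinone. Its window also holds OR51C1, to which 2, 2, 5, 2 and 2 of those CCRs belong in the same order. Its neighbour OR51E1, also expressed in prostate, held 2, 3, 2, 0 and 3. OR5A1, the receptor for the violet odorant beta-ionone, held 2 CCRs in DMSO, 1 with etoposide, 3 with genistein, 1 with mitoxantrone and 4 with p-benzoquinone. OR5AN1, a musk receptor, held 2, 1, 2, 0 and 0, and OR10G4, which responds to guaiacol, held 1, 0, 3, 0 and 0. OR8D1, a receptor for the caramel odorant sotolone, held 1, 3, 5, 3 and 1. OR10A6 held none in any list and lies in a stretch of 203 kb without a CCR.

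Of the receptor genes beside the globin genes, the long OR51B5 is given above, and the 6 others held 0 to 3 CCRs per list, in windows of 4.93 to 13.6 kb. OR52A5 held 1 CCR in DMSO, 2 with etoposide, 2 with genistein, 0 with mitoxantrone and 2 with p-benzoquinone, and OR52A1 held 3, 0, 3, 0 and 1. OR51V1 and OR51B4, the genes on either side of the globin interval, each held 2 in genistein, 1 in p-benzoquinone and 0 in the other 3 lists. In genistein this was 40.4 CCRs per 100 kb for OR51V1 and 40.5 for OR51B4, beside a genome mean of 15.0, but each value rests on 2 CCRs. OR51B2 held 1, 1, 2, 0 and 2, and OR51B6 held 1, 0, 0, 1 and 1. The 96.3 kb between the OR51V1 and OR51B4 windows, which holds globin genes that this erythroid line is known to express, held 7 CCRs in DMSO (density 0.648, 0.26 to 1.33), 7 in etoposide (1.1, 0.442 to 2.27), 17 in genistein (1.17, 0.684 to 1.88), 8 in mitoxantrone (1.13, 0.488 to 2.23) and 6 in p-benzoquinone (0.479, 0.176 to 1.04). All 5 intervals include 1, the genome mean.

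The genes fell into 7 clusters, runs with gaps under 1 Mb. Cluster 1 (chr11:4367263-7941708, OR52B4 to OR10A3) held 67 genes, among them all 55 of class I. Cluster 4 (chr11:54603069-56989843, OR4C46 to OR5AK2) held 48 genes near the centromere, cluster 5 (chr11:58023881-59713845, OR9Q1 to OR10V1) held 21 and cluster 7 (chr11:123753580-124571374, OR6X1 to OR8A1) held 22. Cluster 2 held 7 genes, cluster 3 the pair OR4C13 and OR4C12, and cluster 6 OR2AT4 alone.

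Cluster 1 windows had densities of 1.12 in DMSO (0.9 to 1.38), 1.14 in etoposide (0.857 to 1.49), 1.07 in genistein (0.882 to 1.28), 0.97 in mitoxantrone (0.722 to 1.28) and 1.14 in p-benzoquinone (0.932 to 1.38). The rest of the cluster span, outside the windows, was at 1.12, 1.13, 1.04, 1.01 and 1.17. Windows and the sequence between them were thus at like densities in cluster 1, with ratios from 0.96 in mitoxantrone (0.692 to 1.31) to 1.03 in genistein (0.829 to 1.26). In cluster 5 window densities ran from 0.906 in etoposide (0.545 to 1.41) to 1.2 in mitoxantrone (0.798 to 1.74). Over the rest of its span the ratio ran from 0.934 in etoposide (0.537 to 1.55) to 1.55 in mitoxantrone (0.971 to 2.42), with intervals that include 1. Cluster 7 had its highest value in genistein, at 1.38 (0.984 to 1.89), beside 1.43 (1.2 to 1.69) in the rest of its span, and its lowest in p-benzoquinone, at 0.82 (0.501 to 1.27).

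In cluster 4 the gene windows held more CCRs per length than the sequence between them. Window densities were 0.759 in DMSO (0.481 to 1.14), 0.953 in etoposide (0.555 to 1.53), 0.986 in genistein (0.704 to 1.34), 0.959 in mitoxantrone (0.577 to 1.5) and 0.769 in p-benzoquinone (0.507 to 1.12). The rest of the span was at 0.501 (0.411 to 0.605), 0.559 (0.437 to 0.705), 0.637 (0.549 to 0.736), 0.702 (0.571 to 0.855) and 0.392 (0.319 to 0.478) in the same order, below the genome mean in every list. Windows exceeded it 1.96-fold in p-benzoquinone (1.23 to 3.03) and 1.55-fold in genistein (1.07 to 2.19). The ratios of 1.52 in DMSO (0.922 to 2.39), 1.7 in etoposide (0.94 to 2.92) and 1.37 in mitoxantrone (0.789 to 2.25) have intervals that include 1. How much of that sequence reads can be mapped to was not tested. Against cluster 1, cluster 4 windows were at 0.678 in DMSO (0.409 to 1.08) and 0.676 in p-benzoquinone (0.426 to 1.04), with intervals that include 1.

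The small clusters allowed only wide bounds. Cluster 2 held 2 CCRs in DMSO, 5 with etoposide, 2 with genistein, 3 with mitoxantrone and 6 with p-benzoquinone. Its window densities were 0.515, 2.18, 0.384, 1.18 and 1.33 in the same order. The rest of its span was at 0.515, 0.312, 0.439, 0.45 and 0.254. The window value was above that of the rest in etoposide, mitoxantrone and p-benzoquinone, on few CCRs, and not in DMSO or genistein. The window intervals were 0.709 to 5.1 in etoposide, 0.243 to 3.45 in mitoxantrone and 0.489 to 2.9 in p-benzoquinone. No ratio of windows to rest was computed for this cluster, so the lists cannot be divided by it. Within cluster 2, OR4X2 held 2, 1, 0, 0 and 1 and its neighbour OR4X1 held 0, 0, 0, 2 and 3, while OR4A47 held none. Both genes of cluster 3 held 0 CCRs in all lists, for which the upper ends of the 95% intervals of density were 3.26 in DMSO and 2.43 in genistein. OR2AT4, a receptor for the synthetic sandalwood odorant Sandalore that is also found in skin, held 2 CCRs in DMSO, 0 with etoposide, 4 with genistein, 1 with mitoxantrone and 1 with p-benzoquinone.

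**Figure D3:**
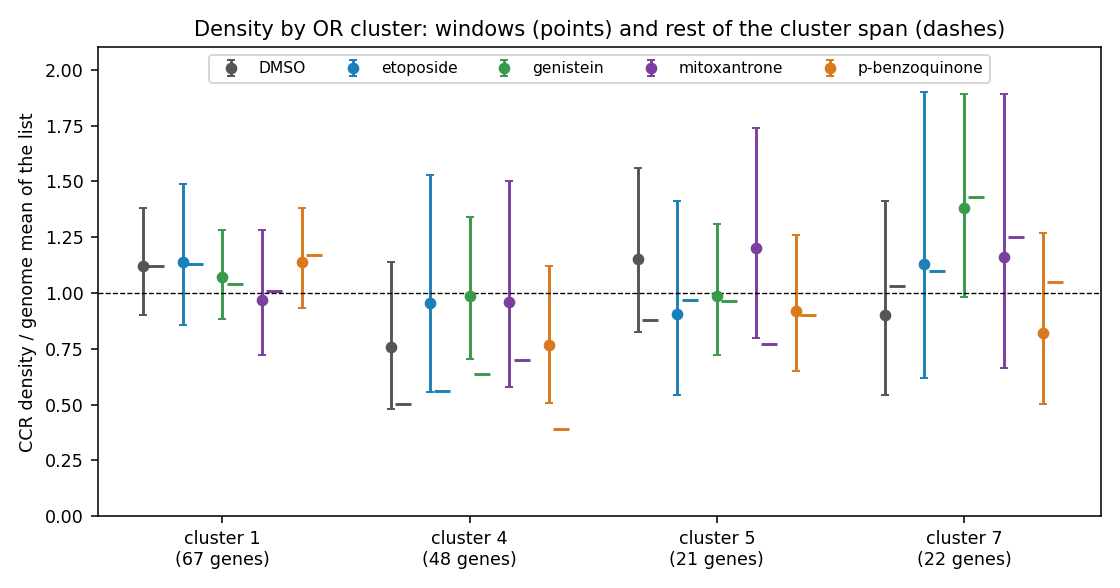
CCR density (vertical axis, number per callable length over the genome mean of the list) in the receptor windows of the 4 largest clusters (points, with exact binomial 95% intervals) and in the rest of each cluster span (dashes), by list. The dashes of cluster 4 lie below its points in all 5 lists and between 0.392 and 0.702, whereas in cluster 1 points and dashes lie close together.

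Class I genes had more CCRs per length than class II genes in p-benzoquinone. Class I was at 1.21 (0.986 to 1.48) and class II at 0.821 (0.667 to 0.999), a ratio of 1.48 (1.11 to 1.97). The ratio was 1.28 in DMSO (0.937 to 1.73), 1.35 in etoposide (0.908 to 2.0), 1.06 in genistein (0.813 to 1.37) and 0.879 in mitoxantrone (0.591 to 1.29), with intervals that include 1. Whether the lists differ in this ratio was not tested. With a score of at least 4 the p-benzoquinone ratio was 1.37 (0.948 to 1.96), with gene bodies alone 1.35 (0.95 to 1.93), and the intervals then include 1. With that score floor the DMSO ratio was 1.48 (1.01 to 2.16), above 1, so that the list whose interval excludes 1 depends on the floor. All class I genes lie in cluster 1, so class and cluster cannot be told apart by this ratio. Against the 12 class II genes of the same cluster, which held 7 CCRs, the ratio in p-benzoquinone was 2.0 (0.934 to 5.1).

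Families differed by few CCRs. Among class I genes, family 51 (23 genes) had densities of 1.16 in DMSO, 1.36 with etoposide, 1.06 with genistein, 0.905 with mitoxantrone and 1.35 with p-benzoquinone, and family 52 (25 genes) had 1.27, 1.28, 1.34, 1.1 and 1.2. Family 56 (7 genes) was at 1.12, 0.761, 0.725, 0.8 and 0.903. In class II the largest families were 5 (34 genes), at 1.19, 1.25, 1.16, 1.19 and 0.885, and 4 (24 genes), at 0.665, 1.13, 0.632, 0.923 and 0.886. Family 8 (22 genes), from clusters 4 and 7, was at 0.572 in DMSO with 12 CCRs, 0.647 in etoposide with 8, 1.14 in genistein with 32, 0.656 in mitoxantrone with 9 and 0.576 in p-benzoquinone with 14. The genistein list thus held more family 8 CCRs than its size alone gives beside the DMSO list, a pattern picked after the values were seen. No interval was computed for it. In cluster 7 the sequence outside the windows was also high in genistein, at 1.43 (1.2 to 1.69), so the pattern cannot be read as particular to family 8.

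Within windows, CCRs lay in gene bodies and flanks alike. Density in bodies over that in flanks was 1.15 in DMSO (0.833 to 1.6), 1.03 in etoposide (0.687 to 1.57), 0.816 in genistein (0.629 to 1.06), 1.04 in mitoxantrone (0.703 to 1.55) and 1.2 in p-benzoquinone (0.886 to 1.65). Strand was known for the 135 genes with a promoter sequence. In p-benzoquinone the 2 kb upstream of these held 38 CCRs and the 2 kb downstream 18, a density ratio of 2.07 (1.15 to 3.85). Same-length genes gave 0.943 (0.88 to 1.01) in that list, and the receptor ratio over theirs was 2.23 (1.24 to 4.17). DMSO had 26 CCRs upstream and 31 downstream, a ratio of 0.822 (0.469 to 1.43), and p-benzoquinone over DMSO was 2.5 (1.1 to 5.82). The ratios were 1.04 in etoposide (0.495 to 2.2), 1.08 in genistein (0.689 to 1.68) and 1.35 in mitoxantrone (0.676 to 2.75). In p-benzoquinone the upstream density was 1.12, near the genome mean, and the downstream density 0.543. The ratio was 2.69 with 1 kb flanks (1.08 to 7.57), 1.29 with 5 kb flanks (0.912 to 1.83) and 1.47 with a score of at least 4 (0.67 to 3.35), so that the last pair of intervals include 1.

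**Figure D4:**
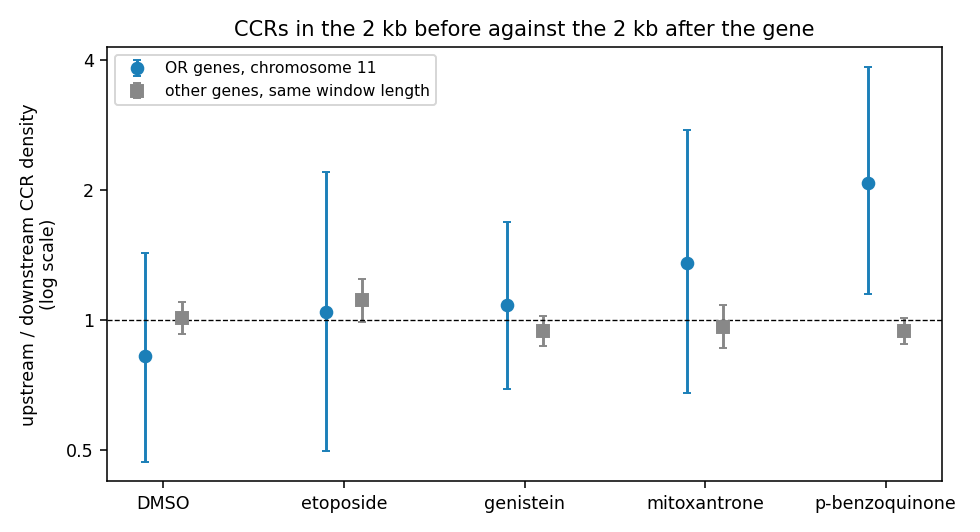
CCR density in the 2 kb upstream over that in the 2 kb downstream (vertical axis, log scale), by list, with exact binomial 95% intervals. Circles are 135 chromosome 11 receptor genes and squares 4808 other genes in the same range of window length. The p-benzoquinone circle, at 2.07, is the one whose interval lies above 1, and the squares lie between 0.943 and 1.11.

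CCRs in receptor windows were like the rest of their lists in score and width. Median scores were 6.25 in DMSO (list 6.24), 6.78 with etoposide (7.79), 11.9 with genistein (12.9), 12.2 with mitoxantrone (13.3) and 4.82 with p-benzoquinone (4.83). Median widths were 149 to 160 bases, beside 150 to 160 over whole lists. Between 8.08% and 13.0% of the receptor CCRs lay in the top 10% of scores of their list. In the mitoxantrone list, the one with an input signal per CCR, input was 0 in 28 of the receptor CCRs, or 23.7% (16.4 to 32.4), against 22.5% of the list.

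The CCR with the highest score among the receptors lay beside OR51D1 in DMSO (chr11:4643267-4643468, score 46.36), between that gene and OR51E1. In etoposide it lay in OR8D1 (chr11:124306515-124306946, 45.11), in genistein in OR56A1 (chr11:6032822-6033662, 89.13), and in mitoxantrone in OR10D3 (chr11:124187787-124187953, 62.57). The top p-benzoquinone CCR lay upstream of OR10D3 (chr11:124181201-124181523, 34.54). Scores of different lists are not on 1 scale. Each lay at percentile 98.6 to 99.8 of its own list, and the top scores of whole lists were far higher, from 116.19 in etoposide to 1816.82 in p-benzoquinone.

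Few receptor CCRs were shared between treatments. Of the DMSO CCRs 23.2% (17.2 to 30.1) overlapped a CCR of any other list by at least 1 base, beside 24.4% of the whole DMSO list. The shares were 30.3% in etoposide (21.8 to 39.8, list 27.4%), 20.2% in genistein (15.4 to 25.8, list 20.2%), 18.6% in mitoxantrone (12.1 to 26.9, list 24.5%) and 22.2% in p-benzoquinone (16.6 to 28.7, list 21.1%). All 5 list values lie inside the receptor intervals. Merged over the lists, the receptor CCRs formed 749 stretches, of which 660 came from 1 list, 79 from 2 and 10 from 3. None came from 4 or 5 lists. The same merged count was not made over the whole lists, so these numbers cannot be read as particular to the receptors.

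The 10 stretches from 3 lists were in or beside OR52I2, OR51C1 within OR51E2, OR51A4, OR51Q1, OR51I2, OR51B5, OR56B2, OR5D16, OR5W2 and OR9I1. The stretch in OR51I2 (chr11:5451861-5452078) held a DMSO CCR of score 21.66, an etoposide CCR of 7.11 and a p-benzoquinone CCR of 5.06. That beside OR51A4 (chr11:4941121-4941505) held etoposide, genistein and p-benzoquinone CCRs of 17.65, 34.56 and 5.07. That in OR5W2 (chr11:55913600-55914229) was the one with a mitoxantrone CCR, of score 35.01. Merging joins chains of overlaps, so that the CCRs of a stretch need not share a base.

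Genes that work with the receptors were taken from a fixed list of 18, all found and measured. They carry the signal (the G protein gene GNAL, the adenylyl cyclase gene ADCY3, the channel genes CNGA2, CNGA4, CNGB1 and ANO2), bring receptors to the surface (RTP1, RTP2, REEP1) or act in receptor choice (LHX2, LDB1, EBF1, KDM1A). Their median covered share over the genome mean was 1.17 in DMSO, 1.09 with etoposide, 1.01 with genistein, 0.953 with mitoxantrone and 1.56 with p-benzoquinone, beside 0.976, 0.866, 0.891, 0.844 and 1.09 over all measured genes. Of the 18, 11 lay above the genome mean in DMSO, 10 with etoposide, 9 with genistein, 8 with mitoxantrone and 17 with p-benzoquinone, beside 48.4%, 42.7%, 41.4%, 40.6% and 54.8% of all measured genes. Between 1 and 4 of the 18 were 2-fold or more higher or lower than in DMSO for each poison, with 4 higher and 1 lower for p-benzoquinone. Over all measured genes, 21.2% were higher and 12.5% lower with p-benzoquinone. With the other poisons 13.5% to 14.8% were higher and 20.0% to 25.0% lower. The 18 genes were not tested against these shares. CNGA4, a channel subunit gene within the span of cluster 1, held 2 CCRs in DMSO, 1 with etoposide, 2 with genistein, 1 with mitoxantrone and 5 with p-benzoquinone. GNAL held 24, 13, 32, 14 and 36, and OMP, the marker of mature olfactory neurons on chromosome 11, held 2, 0, 0, 1 and 1.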

How the data were processed

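TOP2A-bound DNA from K562 cells was sequenced after immunocapture, per the labels' protocols, and reads were handled with Bowtie2 2.1.0 and SAMtools 0.1.19 on hg38, per the submitters' processing notes. How regions were called is not given in the sources used here. As deposited by the authors, there is 1 list of regions per treatment, so replicates cannot be compared. The score column is the authors' deposited signal per region, of no stated unit, with several values in one cell where regions were joined; the mitoxantrone list also has a deposited input signal. The descriptions tie amplified libraries to the lists of 4 treatments; the mitoxantrone list was tied to its library by treatment.

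Regions on the main chromosomes were kept and overlapping entries of a list were joined. Library depth is unknown, since the lists hold called regions. The lowest score kept was 1.82 (etoposide, p-benzoquinone), 1.84 (DMSO), 3.72 (genistein) or 3.87 (mitoxantrone). Receptor regions were divided by callable length and by the same list's density over 2763 Mb. Ratios have exact conditional binomial 95% intervals; amplified reads are not independent molecules, so intervals cover counting error only, and they treat overlapping windows once. Score steps were assigned to 84.4% of low values in DMSO and 73.9% in etoposide. RefSeq tables of GRCh38.p14 gave genes and promoters. The members and lists were chosen with earlier results of these data known. Named genes, 52 by rule, are those with the 3 highest region numbers in each list, a region in all 5 lists or the highest score, the 2 with most and fewest regions per cluster, receptors with known ligands, and globin neighbours; genes of shared stretches and promoters were named after their values were seen. Alternatives changed the score floor, window, overlap, joining, background, callable filter, step class and cluster gap. Tools were scipy 1.17.1, numpy 2.4.6, matplotlib 3.10.9, pandas 2.3.3 and Python 3.11.15, and the density step was tested on simulated data.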

Additional observations from a re-analysis of the deposited data

How the results depend on the processing

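Of 178 values computed under alternatives, 169 moved by less than their counting interval or, for counts of genes, by less than 1.5 times. With gene bodies alone the number of receptor genes with a CCR was 57 in DMSO, 39 with etoposide, 62 with genistein, 40 with mitoxantrone and 60 with p-benzoquinone, since shorter windows hold fewer CCRs. With 50% of the shorter CCR required to overlap, 15.0% of the genistein receptor CCRs were shared. Gaps under 500 kb gave 11 clusters. Receptor density over same-length genes in etoposide was 1.39 in the coarse step class and 0.746 in the fine class; the cause was not tested. The density contrasts with same-length genes and of upstream with downstream flanks, with all their alternatives, and the removal of the 3 longest genes or of genes in long CCR-free stretches were chosen after seeing the data. Step classes were planned for receptor density and its ratio to DMSO. No paired analysis was possible because each treatment has 1 pooled list. At 109 to 247 receptor CCRs per list, changes over the vehicle between 0.784 and 1.34 times lie inside some interval.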

Other observations

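Most receptor genes without a CCR lay in a few long stretches. Of the 22 receptor genes with no CCR in any list, 14 lay in 3 stretches of 100 kb or more that held no CCR in all 5 lists. Chromosome 11 had 18 such stretches among 65419 gaps between CCRs, and the median gap was 1.1 kb. The first, of 203 kb at chr11:7773643-7976303, holds OR5P2, OR5P3, OR10A6 and OR10A3. The second, of 198 kb at chr11:56186521-56384842, holds OR5T2, OR5T3, OR5T1, OR8H1, OR8K3, OR8K1, OR8J1 and OR8U1. The third, of 183 kb at chr11:56692452-56875320, holds OR9G1 and OR9G4. The 3 genes with positions outside the main sequence of the chromosome, OR9G9, OR8U8 and OR8U9, belong to the same subfamilies as genes in the last 2 stretches. The lists also held 18 entries on alternate sequences of chromosome 11, from 1 in DMSO and mitoxantrone to 9 in p-benzoquinone, which were not placed on the chromosome. How reads from sequence with an alternate copy were treated was not tested. Without these 14 genes, whose removal can only raise densities, the receptor densities were 1.02 to 1.1. Cluster 4 was then at 0.867 in DMSO (0.55 to 1.3) and 0.878 in p-benzoquinone (0.579 to 1.28), and the class I over class II ratio in p-benzoquinone was 1.39 (1.04 to 1.85). The other 8 genes without a CCR were OR51S1, OR4A47, OR4C13, OR4C12, OR4A5, OR4C11, OR8U3 and OR1S1.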
